A study of Homo sapiens with 18 samples.

Results

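The genes described here encode the 10 dual-specificity MAPK phosphatases (DUSP1, DUSP2, DUSP4, DUSP5, DUSP6, DUSP7, DUSP8, DUSP9, DUSP10 and DUSP16). They were taken by name, as every array probe that lists a RefSeq transcript or symbol of these genes, and not by how they behaved. This gave 12 probes, 3 of them for DUSP8, and 10 of the 19740 genes that could be named on the array. All 12 probes were among the 29894 probes tested, which name 15852 genes. The samples were EpCAM+ cells sorted from the human hepatocellular carcinoma (HCC) lines Huh1 and Huh7, where EpCAM is a surface protein used in the study to mark tumor-initiating cells. In each line 3 arrays were made from control cells, 3 from cells given disulfiram (DSF, 0.1 µM), an inhibitor of aldehyde dehydrogenase, and 3 from cells given 5-FU (1 µM), an antimetabolite used in chemotherapy, which makes 18 arrays in 6 groups. Drug exposure lasted 48 hours. Copper chloride is named beside DSF in the study's methods, so an effect of the pair cannot be split, and how the control cells were handled is not given in the sources used here. The comparisons ask how the RNA of these phosphatases stood after either drug in cells in which the study followed p38 MAPK signaling.

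MAP kinases are switched on by phosphorylation of a threonine and a tyrosine in the activation loop, and the dual-specificity MAPK phosphatases switch them off by removing both phosphates. Many of these phosphatase genes are themselves induced by the pathways that they restrain, so their RNA is often read as a trace of recent MAP kinase activity, although RNA is neither protein nor enzyme activity. Textbook accounts divide them into inducible nuclear enzymes (DUSP1, DUSP2, DUSP4, DUSP5), cytoplasmic enzymes directed at ERK (DUSP6, DUSP7, DUSP9), and enzymes that prefer the stress kinases p38 and JNK (DUSP8, DUSP10, DUSP16).

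RefSeq promoter windows of GRCh38.p14, which run from 250 bases before to 50 bases after an annotated start, were found for 8 of the 10 genes, and 2 genes had 2 windows each. The windows of DUSP1 and DUSP8 are shown since they hold a full cAMP response element (CRE), the letters TGACGTCA, and those of DUSP6 and DUSP10 since DUSP6 is the feedback gene of ERK and DUSP10 had the highest fold among the 10 genes after DSF in Huh1. Capitals mark the CRE and the TATA box letters TATAAA. The windows lie on the minus strand, DUSP1 at chr5:172771146-172771445, DUSP8 at chr11:1572222-1572521, DUSP6 at chr12:89352452-89352751, and DUSP10 at chr1:221742040-221742339 for its upstream start and chr1:221736851-221737150 for its downstream start, and each is printed in the direction of the gene.
DUSP1: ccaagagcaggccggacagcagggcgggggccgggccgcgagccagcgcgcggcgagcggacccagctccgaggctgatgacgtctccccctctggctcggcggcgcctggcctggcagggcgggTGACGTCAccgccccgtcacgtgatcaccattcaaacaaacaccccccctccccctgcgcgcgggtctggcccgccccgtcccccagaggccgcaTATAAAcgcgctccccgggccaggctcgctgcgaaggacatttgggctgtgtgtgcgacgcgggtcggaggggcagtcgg
DUSP8: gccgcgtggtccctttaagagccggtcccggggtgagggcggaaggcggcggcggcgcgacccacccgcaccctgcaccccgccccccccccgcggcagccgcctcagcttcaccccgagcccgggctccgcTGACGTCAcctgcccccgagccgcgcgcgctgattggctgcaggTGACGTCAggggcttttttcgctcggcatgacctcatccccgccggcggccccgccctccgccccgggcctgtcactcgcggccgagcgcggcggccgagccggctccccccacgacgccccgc
DUSP6: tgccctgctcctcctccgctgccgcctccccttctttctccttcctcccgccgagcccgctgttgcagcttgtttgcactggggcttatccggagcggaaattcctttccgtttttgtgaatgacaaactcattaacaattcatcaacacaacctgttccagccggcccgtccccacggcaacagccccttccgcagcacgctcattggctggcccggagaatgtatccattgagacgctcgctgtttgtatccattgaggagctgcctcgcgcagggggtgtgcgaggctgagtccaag
DUSP10 upstream start: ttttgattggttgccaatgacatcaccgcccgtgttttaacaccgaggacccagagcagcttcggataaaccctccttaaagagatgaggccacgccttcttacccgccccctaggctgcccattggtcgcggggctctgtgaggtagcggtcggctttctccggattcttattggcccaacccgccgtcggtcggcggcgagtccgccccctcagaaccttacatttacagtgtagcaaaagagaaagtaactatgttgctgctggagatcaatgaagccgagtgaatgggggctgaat
DUSP10 downstream start: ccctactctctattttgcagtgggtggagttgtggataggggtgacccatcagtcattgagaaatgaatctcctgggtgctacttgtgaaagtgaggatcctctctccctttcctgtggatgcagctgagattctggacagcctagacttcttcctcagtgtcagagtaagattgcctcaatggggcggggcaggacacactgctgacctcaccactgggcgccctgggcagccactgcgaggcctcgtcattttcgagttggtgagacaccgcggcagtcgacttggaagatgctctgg

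The CRE was found in the windows of 2 genes, once in DUSP1 at bases -125 to -118 from the start and in DUSP8 at bases -118 to -111 and -74 to -67. These letters stood in 1.85% of all 35116 windows given by RefSeq. TATAAA was found in DUSP1 at bases -30 to -25, and 11.5% of all windows hold it on either strand. The letters TGANTCA of an AP-1 site (7.71% of all windows) and TGATGNAA of an ATF4 composite site (3.62%) were found in the windows of 0 of the 8 genes. The SP1 box GGGCGG stood in windows of 7 genes, all but DUSP6, against 45.0% of all windows, and the E-box CACGTG in those of DUSP1 and DUSP2 against 7.26%. Members are counted here by gene and the shares by window. The SP1 box holds only G and C, and the median GC content of all windows was 58.7%. It was 58.3% for DUSP6, 55.0% for both DUSP10 windows and at least 73.3% for the other member windows. Both strands were searched, and matches of different motifs did not overlap in these windows. The matches describe the letters in these windows alone.

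Array values are the authors' spot intensities on a log2 scale minus the 75th percentile of the same array, so that a value of 0 is the level at that percentile and differences between groups are log2 fold changes. Between 59.9% and 71.1% of probes per array lay well above background. The 8 HCC markers checked, among them EPCAM, AFP and ALB, were well above background on all 18 arrays. Among markers of leukocytes, endothelium and fibroblasts, PTPRC, CD14, PECAM1 and CDH5 were well above background on all 18 arrays, and CD3E, VWF, COL1A1, COL3A1, DCN and ACTA2 on 1 to 13; their part in the results was not tested. The arrays lay on 3 slides. Slide 1 held the Huh1 arrays except DSF replicate 3, slide 2 held that array, the Huh7 control and 5-FU arrays and Huh7 DSF replicate 1, and slide 3 held Huh7 DSF replicates 2 and 3 alone. Comparisons of Huh7 DSF therefore rest on a single DSF array once slide is taken into account, and slide-blocked values are given beside the results where a call changed. An array averages the sorted cells, so that more cells with a transcript and more of it per cell cannot be told apart.

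DUSP4, DUSP5 and DUSP10 rose after DSF and after 5-FU in both lines, and DUSP9 fell in the same 4 comparisons relative to the rest of the array, although on a spike-in scale it did not fall after 5-FU in Huh1 and rose in Huh7. DUSP1 and DUSP6 rose after 5-FU in both lines, as did DUSP8 on its brightest probe, although another DUSP8 probe fell in Huh7. After DSF DUSP6 and DUSP8 passed the test in Huh1 and DUSP1 passed it in Huh7. DUSP7, near background, passed the test in 0 of the 4 comparisons. After DSF in Huh1 6 of the 10 genes rose and 2 fell, against 26.4% and 26.3% of all named genes. After DSF in Huh7 5 rose and 1 fell, against 29.1% and 24.1% of named genes. Fewer genes passed there with slide as a block, where the comparison rests on a single DSF array. The 5 include DUSP2, which was near background in Huh7. After 5-FU in Huh1 7 rose and 1 fell, against 25.9% and 29.1% of named genes, and in Huh7 6 rose and 1 fell, against 32.5% and 31.0%. Calls are limma adjusted p values under 0.05, adjusted over all probes tested. Named genes whose treated arrays did not overlap with control made up 67.9% after DSF in Huh1 and 69.4% in Huh7. After 5-FU they made up 62.6% and 71.9%, so that a lack of overlap was common among all genes.

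**Figure D1:**
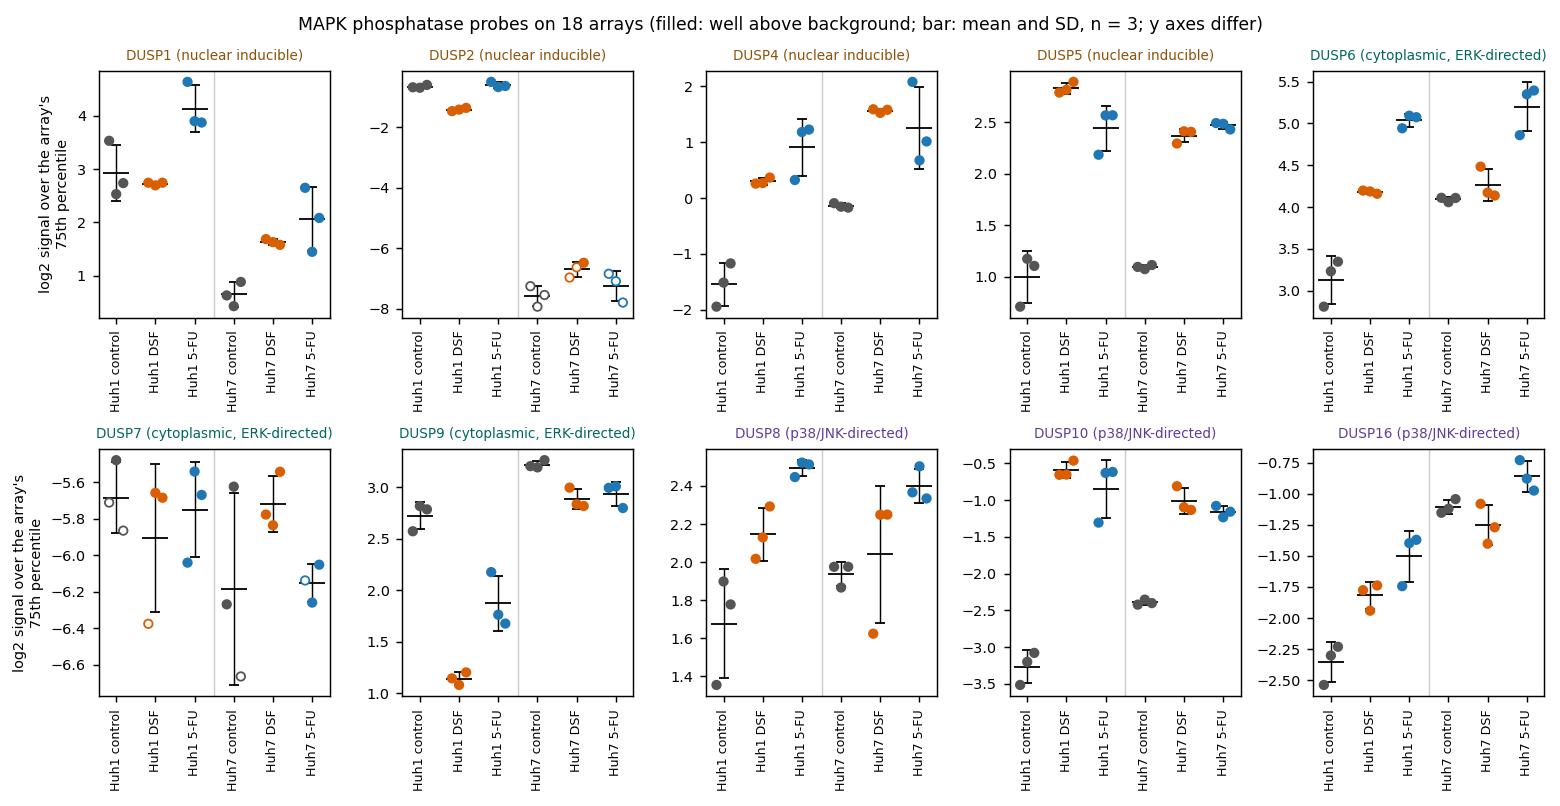
Log2 signal over the array's 75th percentile (y axis, scale differs by panel) of the brightest probe of each MAPK phosphatase on the 18 arrays by group (x axis), with filled points well above background, open points not, and bars for the mean and SD of 3 arrays. DUSP4, DUSP5 and DUSP10 lie above the controls on every treated array of both lines, and DUSP9 below them on this scale.

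The median log2 change of the 10 genes was 0.50 after DSF in Huh1, 0.68 after DSF in Huh7, 1.03 after 5-FU in Huh1 and 0.78 after 5-FU in Huh7, beside medians over all named genes of -0.02, 0.04, -0.03 and -0.01. By class, the 4 nuclear genes had medians of 0.81, 1.13, 1.32 and 1.38 in the same order, the 3 genes directed at p38 and JNK had 0.54, 0.10, 0.85 and 0.46, and the 3 cytoplasmic genes directed at ERK had -0.22, 0.17, -0.07 and 0.04. The last set held a gene that rose, DUSP6, a gene that fell, DUSP9, and DUSP7, which did not pass the test. In Huh7 the medians of the 10 genes and of the nuclear genes include the fitted changes of DUSP2. These were 0.89 after DSF and 0.33 after 5-FU, from signals near background. The Huh7 medians of the genes directed at p38 and JNK, 0.10 and 0.46, are the values of the brightest DUSP8 probe. Another DUSP8 probe gave -0.34 after 5-FU in Huh7. In both lines alike 3 genes rose and 1 fell after DSF (named genes: 11.7% and 10.4%) and 6, with DUSP8 counted by its brightest probe, rose and 1 fell after 5-FU (16.0% and 17.3%). The DSF and 5-FU comparisons of a line use the same 3 control arrays, so their calls are not independent of each other.

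**Figure D2:**
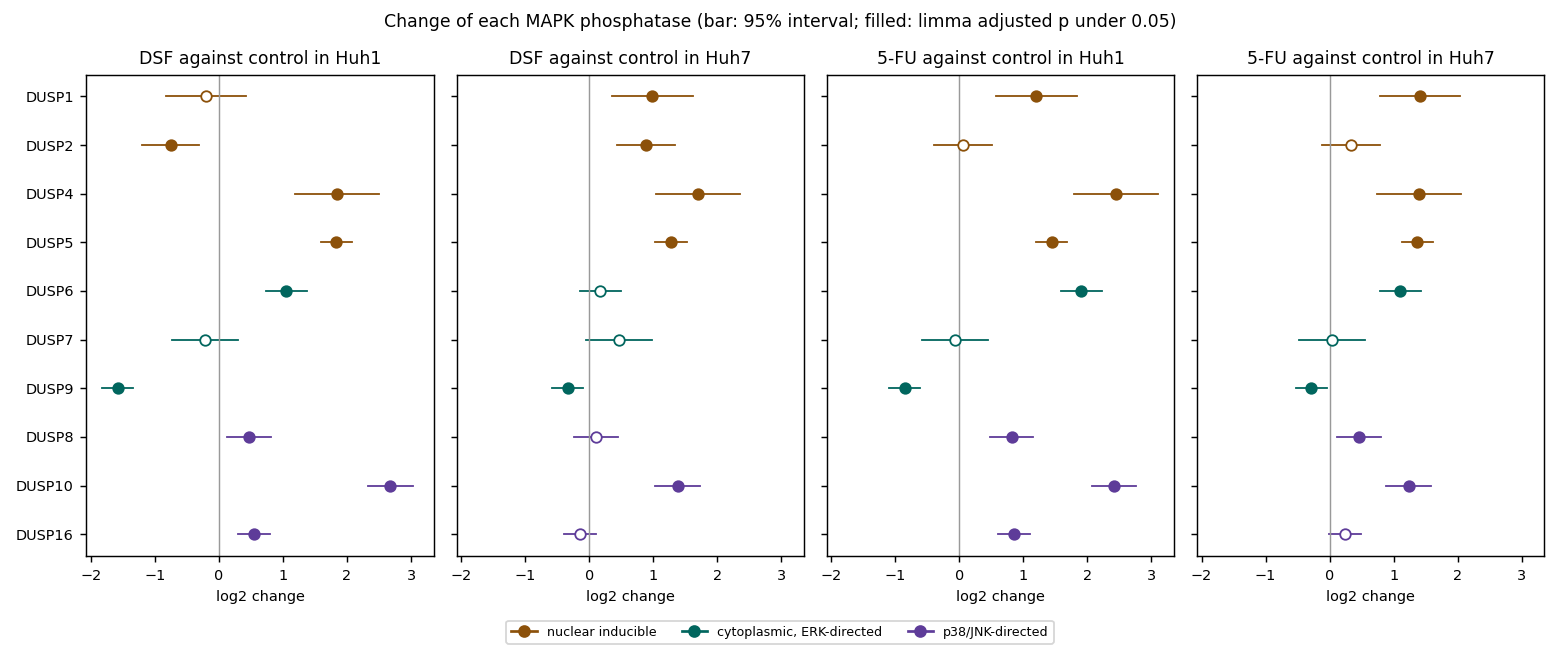
Log2 change against control (x axis) of each gene (y axis, colored by class) after DSF and 5-FU in Huh1 and Huh7, with 95% intervals from limma and filled points where the adjusted p is under 0.05. DUSP10 has the highest value after DSF in Huh1 (2.68), and DUSP9 the lowest in the 4 panels on this scale.

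Among the nuclear enzymes DUSP5, which is directed at ERK, had small spreads. In Huh1 its log2 values were 0.71, 1.17 and 1.11 in control, 2.79, 2.81 and 2.89 after DSF, and 2.18, 2.57 and 2.57 after 5-FU. In Huh7 they were 1.10, 1.07 and 1.11 in control, 2.29, 2.41 and 2.41 after DSF, and 2.49, 2.48 and 2.43 after 5-FU. Every treated array lay above every control array of its line, and the controls of the lines overlapped. DUSP5 rose 3.56-fold (SE 0.115 on the log2 scale, limma adjusted p = 2.86e-08) after DSF in Huh1 and 2.42-fold (SE 0.115, adjusted p = 9.41e-07) in Huh7. After 5-FU it rose 2.72-fold (limma adjusted p = 3.31e-07) and 2.59-fold (adjusted p = 1.66e-07).

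DUSP4, which acts on ERK and other MAP kinases in the nucleus, varied more between arrays. In Huh1 the values were -1.94, -1.51 and -1.17 in control, 0.26, 0.27 and 0.37 after DSF, and 0.32, 1.18 and 1.23 after 5-FU. In Huh7 they were -0.09, -0.15 and -0.17 in control, 1.59, 1.53 and 1.58 after DSF, and 2.08, 0.68 and 1.01 after 5-FU. The groups did not overlap with their controls, while the 5-FU arrays of Huh7 differed among themselves by more than 1 log2 unit. DUSP4 rose 3.58-fold (limma adjusted p = 2.11e-04) after DSF in Huh1, 3.26-fold (adjusted p = 4.29e-04) after DSF in Huh7, 5.48-fold (adjusted p = 1.69e-05) after 5-FU in Huh1 and 2.63-fold (adjusted p = 0.00127) after 5-FU in Huh7. With slide as a block the Huh7 DSF change was 1.73 on the log2 scale (adjusted p = 0.0159), and within slide 2 the same value did not pass the test (adjusted p = 0.0607).

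DUSP1, an immediate early gene whose enzyme prefers p38 and JNK, lay above control after 5-FU in both lines. Its Huh1 values were 3.53, 2.53 and 2.74 in control, 2.74, 2.70 and 2.75 after DSF, and 4.64, 3.90 and 3.87 after 5-FU. The DSF arrays lay within the range of the controls and the 5-FU arrays above it. In Huh7 the values were 0.63, 0.43 and 0.88 in control, 1.69, 1.63 and 1.58 after DSF, and 2.65, 1.45 and 2.08 after 5-FU, all treated arrays above the controls. After 5-FU DUSP1 rose 2.30-fold in Huh1 (limma adjusted p = 0.00377) and 2.66-fold in Huh7 (adjusted p = 8.62e-04). The log2 change after DSF was -0.20 in Huh1 (95% interval -0.84 to 0.43, limma adjusted p = 0.61). In Huh7 DUSP1 rose 1.98-fold after DSF (adjusted p = 0.0139), a call that was lost without Huh7 control replicate 2 (log2 change 0.87, adjusted p = 0.0534), with slide as a block (1.04, adjusted p = 0.11) and within slide 2 (adjusted p = 0.153).

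DUSP2, an inducible phosphatase best known from activated lymphocytes, separated the lines. In Huh1 the values were -0.67, -0.69 and -0.59 in control, -1.46, -1.41 and -1.35 after DSF, and -0.49, -0.66 and -0.63 after 5-FU. The DSF arrays lay below the controls and the 5-FU arrays overlapped with them. DUSP2 fell 1.69-fold after DSF in Huh1 (limma adjusted p = 0.00859), and the change after 5-FU was 0.06 on the log2 scale (95% interval -0.39 to 0.50). In Huh7 the probe was well above background on 0 of 3 control arrays, 0 of 3 5-FU arrays and 1 of 3 DSF arrays, with values from -7.94 to -6.48. For 5-FU against control in Huh7 no fold is given, both groups being below background; the fitted change did not pass (limma adjusted p = 0.189) but did without Huh7 5-FU replicate 3 (adjusted p = 0.00788). For DSF against control in Huh7 the fit called DUSP2 higher (limma adjusted p = 0.00322), a call lost with slide as a block (log2 change 0.61). No fold or bound is given there either, since only 1 of 3 DSF arrays was well above background. After another background correction (normexp) the log2 change was -0.0017.

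DUSP6, the cytoplasmic phosphatase of ERK and a classic feedback gene of that pathway, rose in 3 of the 4 comparisons. In Huh1 its values were 2.81, 3.23 and 3.35 in control, 4.20, 4.19 and 4.16 after DSF, and 4.94, 5.09 and 5.07 after 5-FU. In Huh7 they were 4.11, 4.06 and 4.11 in control, 4.48, 4.17 and 4.14 after DSF, and 4.86, 5.35 and 5.39 after 5-FU. The 5-FU arrays were the highest in each line, and the DSF arrays of Huh7 stood just above the controls. DUSP6 rose 2.07-fold after DSF in Huh1 (limma adjusted p = 5.21e-05), 3.74-fold after 5-FU in Huh1 (adjusted p = 2.70e-07) and 2.15-fold after 5-FU in Huh7 (adjusted p = 1.72e-05). After DSF in Huh7 the log2 change was 0.17 (95% interval -0.15 to 0.49, limma adjusted p = 0.36).

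DUSP9, the other cytoplasmic ERK phosphatase with a clear signal, fell after both drugs relative to the rest of the array, but on the spike-in scale it had no call after 5-FU in Huh1 and rose in Huh7. The Huh1 values were 2.58, 2.82 and 2.79 in control, 1.15, 1.08 and 1.21 after DSF, and 2.18, 1.76 and 1.68 after 5-FU. The Huh7 values were 3.21, 3.20 and 3.27 in control, 3.00, 2.84 and 2.82 after DSF, and 3.00, 3.01 and 2.80 after 5-FU. Each treated group lay below its controls without overlap, with wider gaps in Huh1 than in Huh7. In Huh1 DUSP9 fell 3.00-fold after DSF (limma adjusted p = 1.15e-07) and 1.81-fold after 5-FU (adjusted p = 3.02e-05). In Huh7 it fell 1.26-fold after DSF (adjusted p = 0.0254) and 1.22-fold after 5-FU (adjusted p = 0.0436). Both Huh7 calls depended on single arrays. The DSF call was lost without Huh7 control replicate 1, 2 or 3 or without Huh7 DSF replicate 2 or 3 (log2 change -0.35 to -0.30, limma adjusted p = 0.0501 to 0.0841), and with slide as a block (-0.22, adjusted p = 0.357). The 5-FU call was lost without any single array of the Huh7 control or 5-FU group (-0.32 to -0.22, adjusted p = 0.0501 to 0.155) and with slide as a block (adjusted p = 0.0509). Scaled on the spike-in probes, the DUSP9 change after 5-FU was -0.02 in Huh1 and 0.69 in Huh7, so that its direction after 5-FU holds against the rest of the array and not against the spike-in RNA.

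DUSP7, which is also directed at ERK, was near background, well above it on 1 of 3 Huh1 control arrays, 2 of 3 Huh7 control arrays and 2 or 3 of 3 arrays of the treated groups. Its values lay between -6.66 and -5.48. The log2 changes were -0.22 and 0.47 after DSF and -0.07 and 0.04 after 5-FU in Huh1 and Huh7 (limma adjusted p = 0.49, 0.125, 0.849 and 0.91). Without Huh7 control replicate 2 the change after DSF in Huh7 was 0.75 (adjusted p = 0.0149), and DUSP7 then also passed between the control lines (-0.78, adjusted p = 0.00583) and for the line difference in the DSF effect (0.97, adjusted p = 0.0202).

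DUSP10, a phosphatase of p38 and JNK, moved by the most among the 10 genes in Huh1 after DSF. The values in Huh1 were -3.52, -3.20 and -3.08 in control, -0.65, -0.65 and -0.46 after DSF, and -1.31, -0.63 and -0.62 after 5-FU. In Huh7 they were -2.42, -2.35 and -2.40 in control, -0.81, -1.10 and -1.13 after DSF, and -1.08, -1.23 and -1.16 after 5-FU. All treated arrays lay above the controls of both lines. DUSP10 rose 6.39-fold after DSF (limma adjusted p = 2.11e-08) and 5.33-fold after 5-FU (adjusted p = 8.63e-08) in Huh1. In Huh7 it rose 2.60-fold after DSF (adjusted p = 1.13e-05) and 2.36-fold after 5-FU (adjusted p = 1.43e-05). With slide as a block the Huh7 DSF change was 1.58 on the log2 scale (adjusted p = 3.51e-04). The upstream and downstream starts printed above could not be separated, since the single probe lists only a transcript accession.

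DUSP16, another JNK and p38 phosphatase, had lower values in Huh1 than in Huh7. In Huh1 it measured -2.54, -2.30 and -2.23 in control, -1.78, -1.94 and -1.74 after DSF, and -1.74, -1.40 and -1.37 after 5-FU. In Huh7 it measured -1.15, -1.12 and -1.04 in control, -1.08, -1.40 and -1.27 after DSF, and -0.73, -0.88 and -0.97 after 5-FU. The Huh1 groups did not overlap with control, and in Huh7 the DSF arrays overlapped with it. DUSP16 rose 1.45-fold after DSF (limma adjusted p = 0.00173) and 1.81-fold after 5-FU (adjusted p = 3.87e-05) in Huh1. In Huh7 the log2 changes were -0.15 after DSF (95% interval -0.40 to 0.11) and 0.25 after 5-FU (-0.01 to 0.50), with limma adjusted p = 0.325 and 0.0887.

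DUSP8, a p38 and JNK phosphatase best known from brain and heart, was read by 3 probes that list the same transcript and did not agree. Their mean log2 values in Huh1 control were 1.68 for the brightest, -2.96 for A_32_P98298 and -4.93 for A_33_P3263625. The level of DUSP8 thus depends on the probe. The brightest measured 1.36, 1.90 and 1.78 in Huh1 control, 2.02, 2.13 and 2.29 after DSF and 2.45, 2.52 and 2.51 after 5-FU. In Huh7 it measured 1.98, 1.87 and 1.98 in control, 1.62, 2.25 and 2.25 after DSF and 2.37, 2.50 and 2.33 after 5-FU. The low Huh7 DSF array is the replicate on slide 2, and the other two are the replicates on slide 3. On this probe DUSP8 rose 1.38-fold after DSF in Huh1 (limma adjusted p = 0.0264), 1.76-fold after 5-FU in Huh1 (adjusted p = 6.92e-04) and 1.38-fold after 5-FU in Huh7 (adjusted p = 0.0222). The DSF call was lost without Huh1 control replicate 1 (log2 change 0.31, adjusted p = 0.126), Huh1 DSF replicate 2 (0.48, adjusted p = 0.057) or Huh1 DSF replicate 3 (0.40, adjusted p = 0.0964), and within slide 1 (adjusted p = 0.0897). The Huh7 5-FU call was lost without Huh7 control replicate 2 (0.43, adjusted p = 0.0667) or Huh7 5-FU replicate 2 (0.41, adjusted p = 0.0723).

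For 5-FU in Huh7 the 3 DUSP8 probes gave log2 changes of 0.46 and 0.43 (limma adjusted p = 0.0222 and 0.0179) and, for the probe A_32_P98298, -0.34 (adjusted p = 0.0281), and their mean did not pass the test (0.19, adjusted p = 0.219). For DSF in Huh1 the 3 probes gave 0.47, 0.82 and 0.39, all called higher. For 5-FU in Huh1 they gave 0.82, 1.07 and 0.20, the last without a call. The direction of DUSP8 after 5-FU in Huh7 is thus a property of the probe chosen. In Huh7 after DSF all 3 probes stayed without a call (0.10, -0.25 and -0.09).

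DSF and 5-FU were also compared with each other within each line. In Huh1 1 gene was higher after DSF and 5 were lower, against 30.5% and 25.3% of named genes, and in Huh7 1 was higher and 2 were lower, against 34.5% and 30.7%. DUSP6 was 1.81-fold lower after DSF than after 5-FU in Huh1 (limma adjusted p = 2.76e-04) and 1.91-fold lower in Huh7 (adjusted p = 8.33e-05), and slide as a block left the Huh7 difference at -0.72 on the log2 scale (adjusted p = 0.0141). DUSP16 was 1.24-fold lower in Huh1 (adjusted p = 0.0378) and 1.31-fold lower in Huh7 (adjusted p = 0.0101). The Huh1 call for DUSP16 was lost without Huh1 5-FU replicate 2 or 3 or Huh1 DSF replicate 1 or 2 (log2 difference -0.34 to -0.25, adjusted p = 0.0608 to 0.139) and within slide 1 (adjusted p = 0.0974). The Huh7 call was lost without Huh7 DSF replicate 2 (-0.32, adjusted p = 0.052) and with slide as a block (-0.22, adjusted p = 0.294).

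In Huh1 DUSP1 was 2.65-fold lower after DSF than after 5-FU (limma adjusted p = 0.0012), DUSP2 1.76-fold lower (adjusted p = 0.00503) and DUSP9 1.66-fold lower (adjusted p = 1.12e-04). DUSP5 was 1.31-fold higher (adjusted p = 0.0113), a call that was lost without Huh1 5-FU replicate 1 (log2 difference 0.26, adjusted p = 0.0556) and within slide 1 (adjusted p = 0.143), and which turned to -0.31 under spike-in scaling. In Huh7 DUSP2 was called higher (adjusted p = 0.0338), and was -0.60 on the spike-in scale. No fold is given for it, since only 1 of 3 DSF arrays was well above background. That call was lost without Huh7 5-FU replicate 3 (0.28, adjusted p = 0.184), Huh7 DSF replicate 2 (0.52, adjusted p = 0.0861) or Huh7 DSF replicate 3 (0.45, adjusted p = 0.125), and with slide as a block (adjusted p = 0.491).

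For the genes that rose after both drugs the difference between them was not resolved in most cases. The log2 difference, DSF minus 5-FU, for DUSP10 was 0.26 in Huh1 (95% interval -0.09 to 0.61) and 0.14 in Huh7 (-0.21 to 0.49; 0.35 within slide 2, adjusted p = 0.0345), and on the spike-in scale it was -0.44 and -1.01. For DUSP4 it was -0.61 in Huh1 (-1.27 to 0.04) and 0.31 in Huh7 (-0.35 to 0.96), the latter -0.85 on the spike-in scale. For DUSP5 in Huh7 it was -0.10 (-0.34 to 0.15). For DUSP8 it was -0.35 in Huh1 (-0.69 to -0.01, limma adjusted p = 0.0847) and -0.36 in Huh7 (-0.70 to -0.02, adjusted p = 0.0631), and with slide as a block it passed the test in both lines (-0.42, adjusted p = 0.0166, and -0.78, adjusted p = 0.00182). These are values of the brightest DUSP8 probe. The others gave -0.25 and 0.19 in Huh1, without a call, and -0.68 (adjusted p = 8.82e-04) and 0.25 (adjusted p = 0.0881) in Huh7, so that 1 of the 3 probes ran the other way in each line. The brightest probe in Huh7 also passed without Huh7 DSF replicate 2 or 3 (-0.46 each, adjusted p = 0.0363 and 0.0359). For DUSP1 in Huh7 it was -0.43 (-1.06 to 0.20), and -0.73 without Huh7 5-FU replicate 2 (adjusted p = 0.0414). For DUSP9 in Huh7 it was -0.05 (-0.29 to 0.19). These intervals bound the difference and do not show equal responses. DUSP4 passed the test in Huh1 without Huh1 5-FU replicate 1 (-0.91, limma adjusted p = 0.0264) and in Huh7 without Huh7 5-FU replicate 1 (0.72, adjusted p = 0.0224), in opposite directions.

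The untreated lines differed in 7 of the 10 genes, 5 higher in Huh7 and 2 lower, against 39.3% and 38.6% of named genes, so that the count is near the background of 77.9%. Each line lay mostly on a slide of its own, and line and slide are told apart by a single array, Huh1 DSF replicate 3. DUSP2 was at least 70.6-fold lower in Huh7 than in Huh1 control (limma adjusted p = 5.55e-13), the Huh7 probe being not well above background, and DUSP1 was 4.87-fold lower (adjusted p = 5.97e-06). DUSP4 was 2.65-fold, DUSP16 2.38-fold, DUSP6 1.95-fold, DUSP10 1.83-fold and DUSP9 1.41-fold higher in Huh7 (limma adjusted p = 8.35e-04, 1.81e-07, 3.65e-05, 2.17e-04 and 0.00126). With slide as a block DUSP4 (adjusted p = 0.0833), DUSP9 (adjusted p = 0.121) and DUSP10 (adjusted p = 0.0637) lost the call. For DUSP5 the log2 difference was 0.10 (95% interval -0.15 to 0.34). DUSP8 did not pass on its brightest probe (0.26, adjusted p = 0.154) and passed on 1 other (0.63, adjusted p = 0.00112).

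DUSP2 had the widest range of group means among the 10 genes, 6.99 log2 units, set by the level in Huh1 against background in Huh7. Among the 5 genes whose centred means over the 6 groups lay nearest to it were CD44, the hyaluronan receptor (root mean square difference 0.28 log2 units), CDHR2 (0.31), RIMKLA (0.36) and PLPP2 (0.36).

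**Figure D3:**
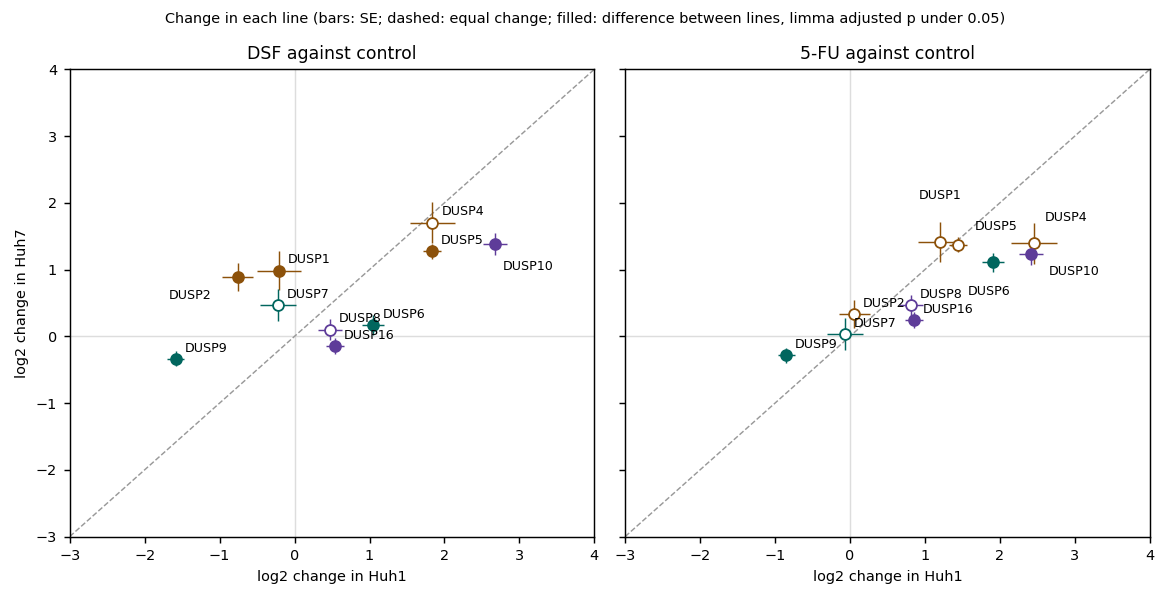
Log2 change against control in Huh7 (y axis) and in Huh1 (x axis) for DSF and 5-FU, with SE bars, a dashed line of equal change, class colors as in the plot of changes, and filled points where the difference between the lines has a limma adjusted p under 0.05. DUSP10 and DUSP9 lie farther from 0 in Huh1 than in Huh7 after either drug.

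The effect of each drug was compared between the lines by an interaction term, coded as Huh7 minus Huh1. For DSF 7 genes passed the test, 3 higher and 4 lower (named genes: 24.3% and 21.9%), and for 5-FU 4 genes, 1 higher and 3 lower (23.7% and 19.9%). For DUSP10, which rose less in Huh7, it was -1.30 log2 units after DSF (limma adjusted p = 5.23e-04) and -1.18 after 5-FU (adjusted p = 0.00114). For DUSP6 after 5-FU it was -0.80 (adjusted p = 0.00824). For DUSP9, which fell less in Huh7, it was 1.25 after DSF (adjusted p = 3.97e-05) and 0.57 after 5-FU (adjusted p = 0.0128). With slide as a block, which leaves a single Huh7 DSF array, the DSF differences of DUSP10 and DUSP9 kept their direction. That of DUSP2 was 1.40 and that of DUSP8 was -0.71. The 7 genes for DSF include DUSP2. It was near background in Huh7, where a fall like that in Huh1 could not be read. DUSP8 is counted here by its brightest probe, which did not pass for DSF (-0.37, adjusted p = 0.207) or 5-FU (-0.35, adjusted p = 0.244), while its other probes passed for DSF (-1.07 and -0.48, adjusted p = 8.31e-04 and 0.0389) and for 5-FU (-0.64 and -0.54, adjusted p = 0.0222 and 0.0236). With the mean of the 3 DUSP8 probes the counts were 8 genes for DSF and 5 for 5-FU. For DUSP4, whose intervals were wide, the difference was -0.14 after DSF (95% interval -1.06 to 0.79) and -1.06 after 5-FU (-1.99 to -0.13, adjusted p = 0.0714), and the 5-FU difference passed without Huh1 control replicate 3 (-1.24, adjusted p = 0.048), Huh1 5-FU replicate 1 (-1.35, adjusted p = 0.019) or Huh7 5-FU replicate 1 (-1.47, adjusted p = 0.00359).

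Genes around these phosphatases were described by lists. Their counts are to be read against all named genes, of which 26.4% rose and 26.3% fell after DSF in Huh1, 29.1% and 24.1% after DSF in Huh7, 25.9% and 29.1% after 5-FU in Huh1, and 32.5% and 31.0% after 5-FU in Huh7, which is 52.7%, 53.2%, 54.9% and 63.5% called in either direction. Of 13 atypical dual-specificity phosphatases, enzymes of the same fold that lack the MAP kinase docking domain, 1 rose and 4 fell after DSF in Huh1, 2 and 4 after DSF in Huh7, 5 and 3 after 5-FU in Huh1, and 5 and 4 after 5-FU in Huh7. Their median log2 changes were -0.04, 0.05, 0.05 and 0.09, and the counts called in either direction, 5, 6, 8 and 9 of 13, lie near the shares of all named genes. DUSP19 fell after DSF in both lines (log2 change -1.28 and -0.99), and DUSP3 (1.02 and 1.41) and DUSP12 (0.56 and 0.77) rose after 5-FU. Of 6 tested members of other families that remove phosphate from MAP kinases, 2, 5, 3 and 5 rose in the same 4 comparisons and 0 fell in these comparisons. PTPRR, a tyrosine phosphatase of ERK, rose after DSF by 1.54 in Huh1 and 2.42 in Huh7 on the log2 scale (adjusted p = 1.25e-05 and 2.03e-07 by limma), and was higher after DSF than after 5-FU by 1.24 and 1.95 (adjusted p = 7.87e-05 and 6.13e-07).

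Of 7 ERK cascade kinases, again beside 52.7%, 53.2%, 54.9% and 63.5% of all named genes called, 2 rose and 2 fell after DSF in Huh1, 0 and 3 after DSF in Huh7, 1 and 4 after 5-FU in Huh1, and 0 and 5 after 5-FU in Huh7. MAPK3, which encodes ERK1, fell in all 4 comparisons relative to the rest of the array (-0.59, -0.92, -0.71 and -0.83 on the log2 scale, limma adjusted p between 2.35e-05 and 9.70e-04). Spike-in scaling shifted all changes after 5-FU by 0.83 in Huh1 and 0.98 in Huh7. These shifts exceed the size of the MAPK3 falls after 5-FU, which therefore do not hold against the spike-in RNA. Of 9 p38 cascade kinases 1 rose and 5 fell, 1 and 2, 0 and 5, and 2 and 3 in the same order, beside the same shares. MAPK11, the gene of p38 beta, rose after DSF by 1.36 in Huh1 and 1.35 in Huh7 (adjusted p = 4.04e-07 and 4.45e-07). Relative to the rest of the array it was higher after DSF than after 5-FU by 1.26 and 0.80 (adjusted p = 7.10e-07 and 2.81e-05). Spike-in scaling shifted all differences between DSF and 5-FU by -0.70 in Huh1 and -1.16 in Huh7. The Huh7 shift is larger in size than the MAPK11 difference in that line, so its direction there depends on the scaling. MAPK12, the gene of p38 gamma, fell after 5-FU relative to the rest of the array (-0.86 in Huh1 and -0.70 in Huh7), beside spike-in shifts of 0.83 and 0.98. Of 3 tested JNK cascade kinases 1 rose and 2 fell, 1 and 1, 1 and 2, and 0 and 2.

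**Figure D4:**
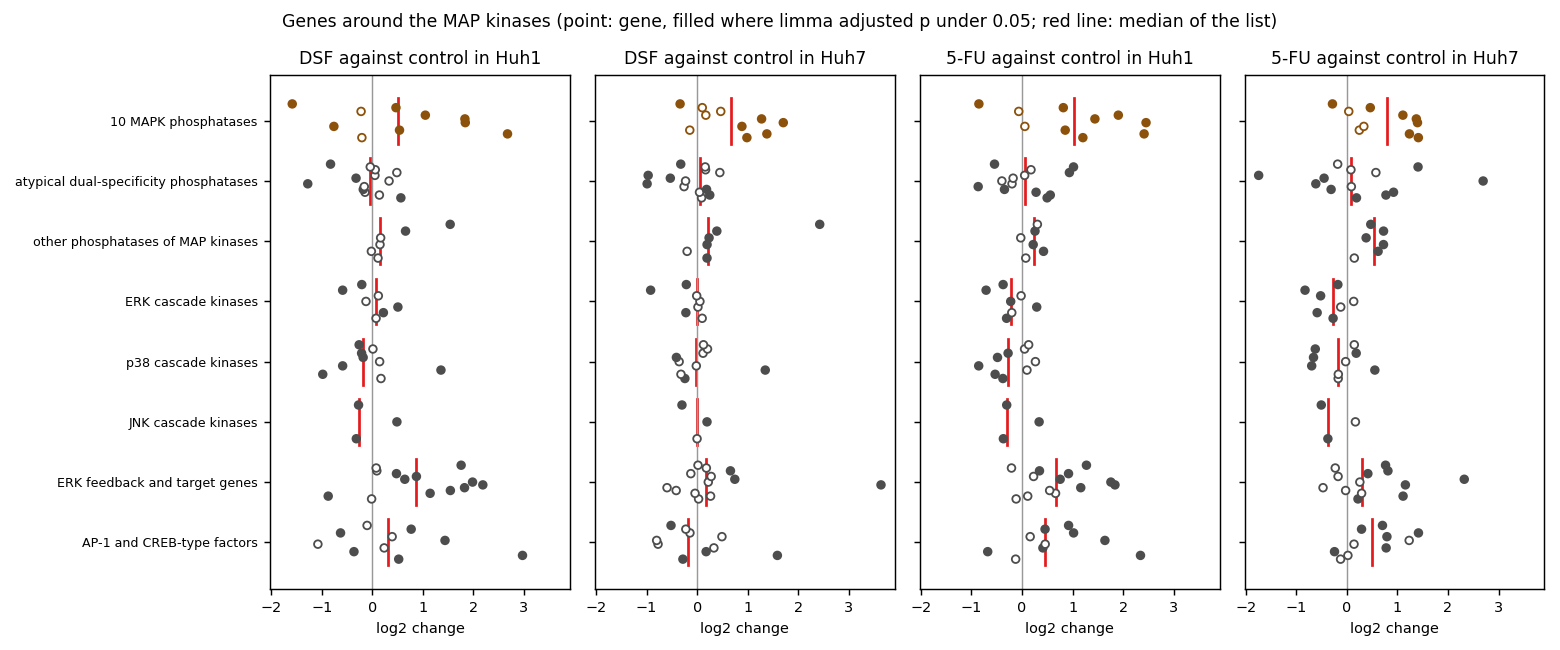
Log2 change against control (x axis) of each gene of the MAPK phosphatases and 7 related lists (y axis) in the 4 comparisons, filled where the limma adjusted p is under 0.05, with a red line at the median of the list. The median of the 10 MAPK phosphatases lies between 0.50 and 1.03, and that of the ERK feedback genes is 0.87 after DSF in Huh1 and 0.18 in Huh7.

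Of 13 tested feedback and target genes of ERK 9 rose and 1 fell after DSF in Huh1 (median log2 change 0.87), and 3 rose and 0 fell in Huh7 (0.18), and the interaction passed the test for 8 of 13, 2 higher and 6 lower in Huh7, against 46.3% of named genes in either direction. After 5-FU 7 rose and 0 fell in Huh1 (0.66), against 25.9% and 29.1% of named genes. In Huh7 7 rose and 0 fell (0.29), against 32.5% and 31.0%. Called in either direction were 52.7% and 53.2% of named genes after DSF and 54.9% and 63.5% after 5-FU. PHLDA1 rose in the 4 comparisons (0.64, 0.75, 0.75 and 2.32), and SPRY4, an inhibitor of receptor signaling, rose after 5-FU (1.27 and 0.76). FOSL1, which encodes the AP-1 subunit FRA1, rose after DSF by 2.19 in Huh1, and in Huh7, where it was not well above background in control, at least 11.2-fold (limma adjusted p = 1.84e-08). After 5-FU FOSL1 rose by 1.84 in Huh1 and at least 2.01-fold in Huh7 (adjusted p = 3.39e-04).

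Of 10 AP-1 and CREB-type factors, which bind CRE and AP-1 sites, 4 rose and 2 fell after DSF in Huh1, 2 and 2 after DSF in Huh7, 6 and 1 after 5-FU in Huh1, and 5 and 1 after 5-FU in Huh7. After DSF these counts, 6 and 4 of 10, lie near the 52.7% and 53.2% of all named genes called. After 5-FU they were 7 and 6 of 10, beside 54.9% and 63.5% of named genes. ATF3, a stress-induced member, rose after DSF by 2.97 and 1.59 on the log2 scale (limma adjusted p = 1.90e-09 and 9.66e-07). JUN (1.02 and 1.41) and JUND (0.92 and 0.70) rose after 5-FU in Huh1 and Huh7. For JUN the log2 difference, DSF minus 5-FU, was -1.65 in Huh1 and -1.56 in Huh7 (adjusted p = 5.49e-06 and 4.94e-06 by limma).

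The values above are relative to the rest of each array. Against 7 spike-in probes, which read RNA added in a fixed amount, the 75th percentile of the arrays stood higher after 5-FU than in control, at -2.43 against -3.26 in Huh1 and -2.21 against -3.19 in Huh7 on the log2 scale, and after DSF at -3.12 and -3.36. Spike-in scaling moved the median log2 change of all probes after 5-FU from -0.03 to 0.80 in Huh1 and from -0.05 to 0.93 in Huh7, which are shifts of 0.83 and 0.98, and shifted it after DSF by 0.14 in Huh1 and -0.18 in Huh7. On that scale DUSP10 rose by 3.25 and 2.22 after 5-FU and DUSP6 by 2.74 and 2.09 (limma adjusted p = 2.82e-08, 2.74e-07, 1.97e-08 and 5.88e-08). All 10 genes were then lower after DSF than after 5-FU in Huh7. After DSF DUSP10 rose by 2.81 and 1.20 on that scale (limma adjusted p = 1.21e-07 and 7.22e-04), while DUSP2 in Huh1 (-0.62, adjusted p = 0.0555) and DUSP1 in Huh7 (0.81, adjusted p = 0.074) lost their calls.

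**Figure D5:**
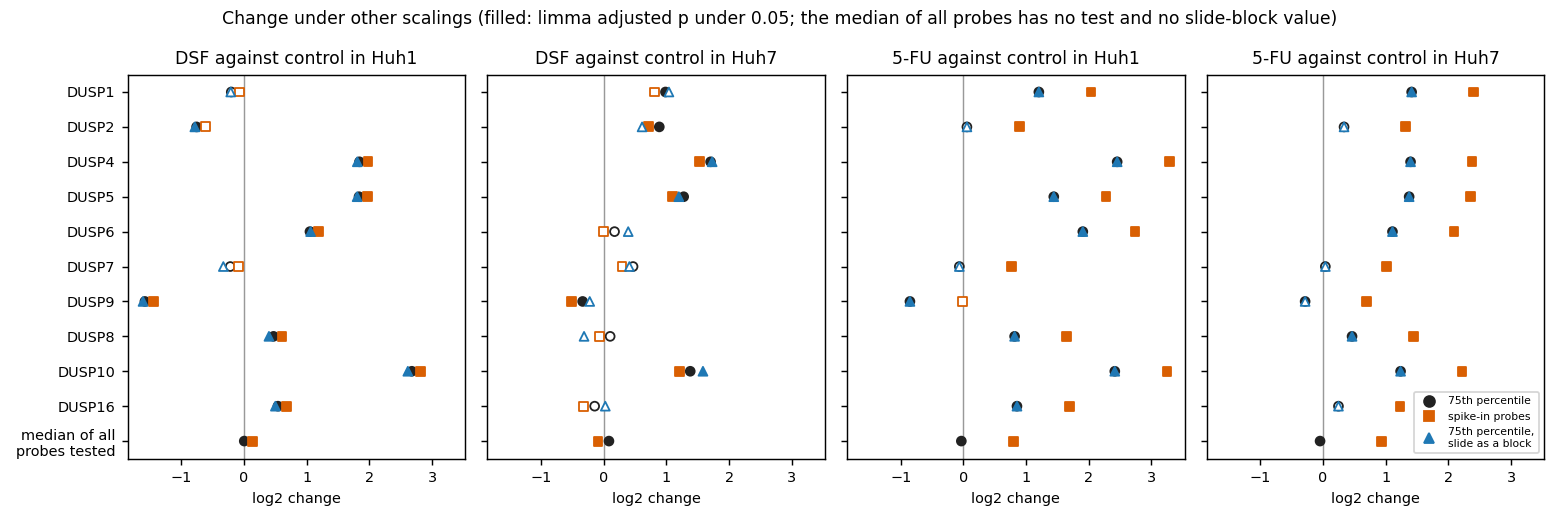
Log2 change against control (x axis) of each gene and, in the last line, of the median probe (y axis), with arrays scaled on the 75th percentile, on the spike-in probes, or on the 75th percentile with slide as a block, filled where the limma adjusted p is under 0.05. The spike-in values lie to the right of the others after 5-FU, where DUSP9 in Huh7 turns from -0.29 to 0.69.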

How the data were processed

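Gene expression was measured on 18 Agilent one-colour arrays, 3 for each of 6 groups, which the labels number as replicates and the methods describe as independent experiments in triplicate. The authors scanned them with Agilent Feature Extraction (10.7.1.1 by the submitters' processing notes and file headers), and the deposited spot intensities are background-subtracted processed signals. A second deposited table, also of intensities, lay within 0.05 log2 of a constant from these signals for 100% of probes and was used as an alternative.

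Outlier spots (316 to 447 per array) were left out, spots of a probe were averaged on the log2 scale, and the 75th percentile of each array was subtracted. Probes well above background in at least 1 group were tested (29894 of 42405) with limma 3.58.1 in R 4.3.3, in one model of all 6 groups, and p values were adjusted by Benjamini-Hochberg over all probes tested with a threshold of 0.05. Exact tests of 3 against 3 arrays cannot go below p = 0.1 and were not used. A gene with several probes is given by its brightest. Where a probe was not well above background on any array of a group, a fold is the bound set by the dimmest signal well above background. No fold is given for DUSP2 between groups of Huh7, where most arrays of each group were not well above background. Of 27134 RefSeq probes 25771 were named through RefSeq. Python 3.11.15, pandas 2.3.3, numpy 2.4.6 and matplotlib 3.10.9 were used otherwise, and the fit was tested on simulated data.

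The members and lists were chosen with earlier results of these data known. The text names the 10 members, genes of the other lists called in the same direction in both lines for a drug with a log2 change of at least 0.5 in size in each, and the 5 genes nearest in pattern to the member with the widest range of group means. Some items that these rules name are not reported here. The 32 alternatives changed the background correction (normexp with an offset of 50, on median spot signals in place of the mean signals first planned), the scaling, the filter, the handling of spots and probes, the slide, the samples in the fit and the replicate block, or left out 1 array.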

Additional observations from a re-analysis of the deposited data

Results flagged for a closer look

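The effect of a drug on 7 of the 10 genes for DSF and on 4 for 5-FU differed between the lines by the interaction term in limma, given here as the log2 change in Huh7 minus that in Huh1. Of all named genes 46.3% passed for DSF and 43.6% for 5-FU, so that the 5-FU count is near the background. For DSF the difference was 1.19 for DUSP1 (adjusted p = 0.0348), 1.64 for DUSP2 (adjusted p = 5.80e-04), -0.56 for DUSP5 (adjusted p = 0.0139), -0.88 for DUSP6 (adjusted p = 0.00431), 1.25 for DUSP9 (adjusted p = 3.97e-05), -1.30 for DUSP10 (adjusted p = 5.23e-04) and -0.68 for DUSP16 (adjusted p = 0.00468). For 5-FU it was -0.80 for DUSP6 (adjusted p = 0.00824), 0.57 for DUSP9 (adjusted p = 0.0128), -1.18 for DUSP10 (adjusted p = 0.00114) and -0.61 for DUSP16 (adjusted p = 0.01).

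The DUSP2 difference rests on Huh7 signals of which 1 of 9 arrays was well above background. The DUSP1 difference lost its call without any single one of 9 of the 12 arrays in it (0.89 to 1.22, adjusted p = 0.0553 to 0.0826). With slide as a block the DSF differences of DUSP1 (adjusted p = 0.128), DUSP5 (adjusted p = 0.0544), DUSP6 (adjusted p = 0.0779) and DUSP16 (adjusted p = 0.104) did not pass, and those of DUSP2 (1.40, adjusted p = 0.0165), DUSP9 (1.39, adjusted p = 5.63e-04) and DUSP10 (-1.03, adjusted p = 0.0196) did.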

How the results depend on the processing

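Over 1782 recalculations of single genes in 9 comparisons, 1645 kept direction and side of the threshold, 79 lost a call, 46 gained one and 12 changed direction with a call in either setting; a further 33 changed sign with no call in either, the largest being 0.44 in size. With normexp the directions turned for DUSP2 after DSF in Huh7 (-0.0017), DUSP2 (-0.35) and DUSP7 (-0.32) after 5-FU in Huh7, DUSP7 for DSF against 5-FU in Huh1 (0.35) and DUSP2 for the line difference in the 5-FU effect (-0.39), all near background. With spike-in scaling they turned for DUSP7 after 5-FU in Huh1 (0.77), DUSP9 after 5-FU in Huh7 (0.69), DUSP5 for DSF against 5-FU in Huh1 (-0.31), and DUSP2 (-0.60), DUSP4 (-0.85), DUSP7 (-0.73) and DUSP10 (-1.01) for DSF against 5-FU in Huh7. Spike-in scaling gave 22438 probes higher and 361 lower after 5-FU in Huh1, and 22877 and 1047 in Huh7.

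Of 180 recalculated counts of members called, 173 were within 1.5 times. The others were 3 with slide as a block and 2 within slide 2 after DSF in Huh7, 5 with normexp and 10 with spike-in scaling for DSF against 5-FU in Huh7, 4 with slide as a block between the control lines, 4 with slide as a block for the line difference in the DSF effect, and 2 with spike-in scaling for that in the 5-FU effect. Leaving out 1 array gave 7 to 8 members called after DSF in Huh1, 5 to 6 after DSF in Huh7, 8 to 8 after 5-FU in Huh1, 5 to 7 after 5-FU in Huh7, 5 to 6 and 2 to 4 for DSF against 5-FU in Huh1 and Huh7, 7 to 8 between the control lines, and 6 to 7 and 4 to 5 for the line differences in the DSF and 5-FU effects.

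With the replicate number as a block the counts were 6 after 5-FU in Huh7 and 4 for DSF against 5-FU in Huh7, and the same as without it elsewhere. Arrays sharing a number did not deviate together (18 correlations of -0.09 to 0.02, the own number best in 1 of 18), so no pairing by number was seen. With 3 arrays a group these correlations cannot exclude a pairing by experiment. Values within a slide could not be had for comparisons between the lines. The number of arrays, 3 a group, and signals near background for DUSP7 and for DUSP2 in Huh7 limit precision.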
